A study of Mus musculus with 6 samples.

Results

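The brush border hydrolases are the digestive enzymes that enterocytes, the absorptive cells of the small intestine, carry on their microvilli. The 9 genes described here were taken by name, of 48440 genes in the tables: the disaccharidases *Sis*, *Mgam* and *Treh*, the peptidases *Anpep*, *Enpep*, *Mep1a*, *Mep1b* and *Dpp4*, and the alkaline phosphatase *Alpi*. The rule that picks them uses no measured value, though the group was proposed with earlier results of these data known. RNA was sequenced from small intestinal adenomas of ApcMin WT mice (libraries QC4, QC5 and QC6) and ApcMin PCdel mice (QC3, QC8 and QC10). Each library is taken here as 1 mouse, which neither the labels nor the study's methods state. All mice carried ApcMin, the truncating *Apc* allele that gives rise to intestinal adenomas, on a C57BL/6 background, and were older than 42 days. PCdel mice combine a Cre knocked into the *Defa4* locus with a Rosa26-iDTA allele, so that cells of the Paneth cell lineage make diphtheria toxin A and die. By the study's methods the WT littermates of that line carry the same Rosa26-iDTA allele without Cre. Which stretch of the small intestine each adenoma came from is not given in the labels.

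Starch and sugar reach the jejunum as short oligosaccharides, and peptides arrive as fragments left by the pancreatic proteases. Enzymes anchored in the microvillus membrane complete both, next to the transporters that take up the products, and their mRNAs rise as enterocytes leave the crypt and mature on the villus. In adenomas of ApcMin mice, where Wnt signalling keeps the epithelium crypt-like, they serve as markers of differentiated enterocytes. In bulk tissue, fewer enterocytes and less RNA per enterocyte cannot be told apart.

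The coding bases of the active sites are shown because they define the enzyme classes of the group and how close its members are. They come from the GENCODE M21 transcripts of GRCm38, as 36 bases read 5′ to 3′ on the coding strand. *Sis* (sucrase-isomaltase) and *Mgam* (maltase-glucoamylase) each hold 2 catalytic domains, and the codon of the catalytic aspartate is in capitals. Each of these stretches runs across an exon junction, from exon 13 to exon 14 or from exon 35 to exon 36 of 48, so that its coordinates include the intron.
Sis, first site, chr3:72946640-72947435: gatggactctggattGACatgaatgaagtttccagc
Sis, second site, chr3:72913257-72914589: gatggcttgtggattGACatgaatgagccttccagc
Mgam, first site, chr6:40662695-40663526: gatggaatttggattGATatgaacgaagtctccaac
Mgam, second site, chr6:40755015-40755460: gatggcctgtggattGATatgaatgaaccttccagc

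The second site of *Sis* shared 33 of 36 bases with the second site of *Mgam* and 30 of 36 with the first site of *Sis* itself. *Anpep* (aminopeptidase N), *Enpep* (aminopeptidase A) and *Mep1a* (meprin alpha) are zinc peptidases. In the lines that follow, capitals mark the codons of the histidine and glutamate pair and of the next histidine of the zinc-binding motif. For *Dpp4* (dipeptidyl peptidase 4) and *Alpi* (intestinal alkaline phosphatase) they mark the catalytic serine codon.
Anpep, exons 6 to 7, chr7:79838993-79839189: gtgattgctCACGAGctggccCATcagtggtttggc
Enpep, exons 5 to 6, chr3:129309127-129309795: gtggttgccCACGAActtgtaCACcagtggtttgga
Mep1a, exon 7, chr17:43491647-43491682: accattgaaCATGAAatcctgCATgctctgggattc
Dpp4, exons 21 to 22, chr2:62347897-62348515: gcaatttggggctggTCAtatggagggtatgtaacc
Alpi, exon 4, chr1:87100810-87100845: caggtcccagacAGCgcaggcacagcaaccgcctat

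The sites of the aminopeptidases *Anpep* and *Enpep* shared 28 of 36 bases, and those of *Anpep* and *Mep1a* shared 14. Over whole transcripts, little sequence was shared with other genes. Of the 31-base words in *Alpi* transcripts, 7.07% also occurred in another gene, 3.47% in its paralog *Akp3*. The share was 0.662% for *Mgam*, all of it with *Mgam2-ps*. It was 3.22% for *Dpp4*, 2.66% for *Treh*, 2.64% for *Mep1b*, 0.216% for *Sis* and 0% for *Anpep*, *Enpep* and *Mep1a*.

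The 250 bases before the RefSeq start site (GRCm38.p6) are shown for the disaccharidase *Sis*, a classical enterocyte promoter, for *Alpi*, and for *Mep1a*, the member whose level varied most between libraries. Promoters of 8 of the 9 genes, all but *Mep1b*, were taken from the RefSeq table. They were searched on both strands for 4 motifs: the CDX motif CAATAAA, the GATA motif AGATAA, the HNF4 motif CAAAGTCCA and the TATA box TATAAA. Matches are in capitals, and overlapping matches run together. The window of *Mep1a* ends inside the gene as the deposited tables place it, since its RefSeq start lies farther in.
Sis, chr3:72967864-72968113, minus strand: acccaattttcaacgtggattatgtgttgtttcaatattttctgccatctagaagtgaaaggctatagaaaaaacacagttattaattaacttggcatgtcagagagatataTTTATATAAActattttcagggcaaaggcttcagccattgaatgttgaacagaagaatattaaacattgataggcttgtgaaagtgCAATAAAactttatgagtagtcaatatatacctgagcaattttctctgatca
Alpi, chr1:87101607-87101856, minus strand: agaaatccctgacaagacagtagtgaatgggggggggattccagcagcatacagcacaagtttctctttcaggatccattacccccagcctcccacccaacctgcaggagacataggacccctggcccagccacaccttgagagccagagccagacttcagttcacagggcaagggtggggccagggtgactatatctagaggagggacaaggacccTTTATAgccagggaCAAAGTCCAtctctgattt
Mep1a, chr17:43502774-43503023, minus strand: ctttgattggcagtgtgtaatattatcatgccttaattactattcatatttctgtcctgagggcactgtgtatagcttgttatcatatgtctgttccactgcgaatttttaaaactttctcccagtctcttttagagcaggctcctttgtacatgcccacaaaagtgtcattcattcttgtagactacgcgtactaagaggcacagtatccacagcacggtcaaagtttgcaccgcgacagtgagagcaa

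The *Sis* promoter held the CDX motif at -52 and TATA matches at -138 and -134, where the number is the first base of the match relative to the start. The *Alpi* promoter held a TATA match at -33 and the HNF4 motif at -19, and the *Treh* promoter held the HNF4 motif at -71. These letters of the HNF4 motif occur in 0.38% of all 32851 promoters of the table. The corresponding shares were 4.20% for CDX, 9.99% for GATA and 12.4% for TATA. The GATA motif was found in *Dpp4* at -32 and in *Mgam* at -208 and -66. TATA matches were also found in *Mgam* at -30, *Enpep* at -52 and *Dpp4* at -227, so that 5 of 8 promoters held them. None of the 4 motifs was found in this window of *Mep1a*. The *Sis* window had a GC content of 31.6%, the *Mep1a* window 41.6% and the *Anpep* window 72.8%, beside a median of 52.4% over all promoters. The *Anpep* window (79848211 to 79848460) lies wholly inside that gene as the deposited data place it (79821803 to 79861059). A match of letters is a description of the window and was not tested as a binding site.

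The genotype of the libraries was set beside Paneth cell genes. The paper itself reports *Defa21*, *Defa22* and *Lyz1* as low in PCdel adenomas from this same sequencing, so their separation is no independent check. *Defa21*, *Defa22* and *Lyz1* were lower in every PCdel library than in every WT library, with log2 fold changes of -2.98, -2.77 and -0.95 (limma adjusted p = 0.309, 0.309 and 0.979). *Defa21* and *Defa22* are near-identical copies, so their reads may be split between them. Of 8 non-defensin Paneth cell genes, *Lyz1* among them, the groups were separate in 1, beside 7.54% of all genes tested. By limma 7 were fitted lower and 1 higher, and 0 passed adjustment. An unadjusted p under 0.05 was reached by 3, beside 3.38% of all genes. *Mptx2* had the largest fitted fall (-1.04), and *Reg3g* the only rise (0.69, and -0.068 without QC6). The aligned sequence came to between 5.41 and 5.88 gigabases per library. WT library QC6 stood apart: it was the lowest of the 6 libraries in 46.1% of the 14240 genes tested and the highest in 12.5%, and limma's array quality weights gave it 0.237, the lowest weight. Of the pan-epithelial genes, *Epcam*, *Cdh1*, *Krt8*, *Krt18* and *Krt19* were lowest in QC6, but *Cldn3*, *Cldn7* and *Cdh17* were lowest in QC3 and *Lgals4* in QC8. In QC6, 10 of 13 sugar and peptide transporters were highest. The fitted differences of the members, and some other values that rest on QC6, are therefore also given without it. A Y-linked score, the mean log2(FPKM + 1) of Y-linked genes, was 3.13 in QC6 and 3.19 in QC3. In the other libraries it was at most 0.403. The score was a covariate among the alternatives, and by the study's methods mice of both sexes were used. Epithelial and brush border markers were abundant in all 6 libraries, with *Epcam* between 735.1 and 1001 FPKM and *Vil1* (villin) between 386.0 and 468.5 FPKM, and the 8 pancreatic acinar markers summed to at most 0.50 FPKM.

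All 9 hydrolases were expressed in all 6 libraries, and together they made up between 0.274% and 0.453% of a library's FPKM (a level scaled for transcript length and library size). By mean FPKM over the 6 libraries, *Anpep* was the highest at 544.9 ± 148.0 (SD, n = 6), in the top 0.99% of the genes tested. *Alpi* followed at 338.9 ± 122.0 and *Sis* at 320.9 ± 100.7. Then came *Mep1b* at 231.0 ± 58.1, *Mgam* at 211.4 ± 26.2 and *Enpep* at 138.2 ± 56.0 FPKM. The lowest were *Dpp4* at 64.1 ± 23.3, *Treh* at 41.2 ± 28.2 and *Mep1a* at 26.8 ± 19.3 FPKM. The ranges of all neighbours in this order overlapped. Within libraries, *Anpep* was above *Alpi*, *Enpep* above *Dpp4* and *Dpp4* above *Treh* in 6 of 6, whereas *Alpi* was above *Sis* in only 3 of 6.

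The order of the levels differed between the scales of the tables. These also give a gene's mean read coverage, which can be divided by the aligned gigabases. Since the gigabases were taken from the most common ratio of coverage to FPKM in a library, genes with that ratio have equal values on both scales by construction. The ratio of FPKM to coverage per gigabase was 1.0 for *Alpi* and *Mep1b*, 1.02 for *Treh*, between 1.19 and 1.30 for *Mep1a*, *Anpep* and *Enpep*, 1.82 for *Sis* and 1.88 for *Dpp4*. For *Mgam* it was 6.03, with a mean of 211.4 FPKM and of 35.1 ± 3.45 on the coverage scale (SD, n = 6). Why the scales differ was not tested. The number of annotated transcripts was 7 for *Mgam*, 6 for *Anpep* and *Dpp4* and 5 for *Enpep*. It was 4 for *Sis*, *Treh* and *Mep1a*, 3 for *Mep1b* and 1 for *Alpi*. On that scale *Mgam* moved from the fifth place to the seventh, and *Mep1b* stood above *Sis* in 6 of 6 libraries. *Anpep* stayed the highest and *Mep1a* the lowest on both scales.

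**Figure D1:**
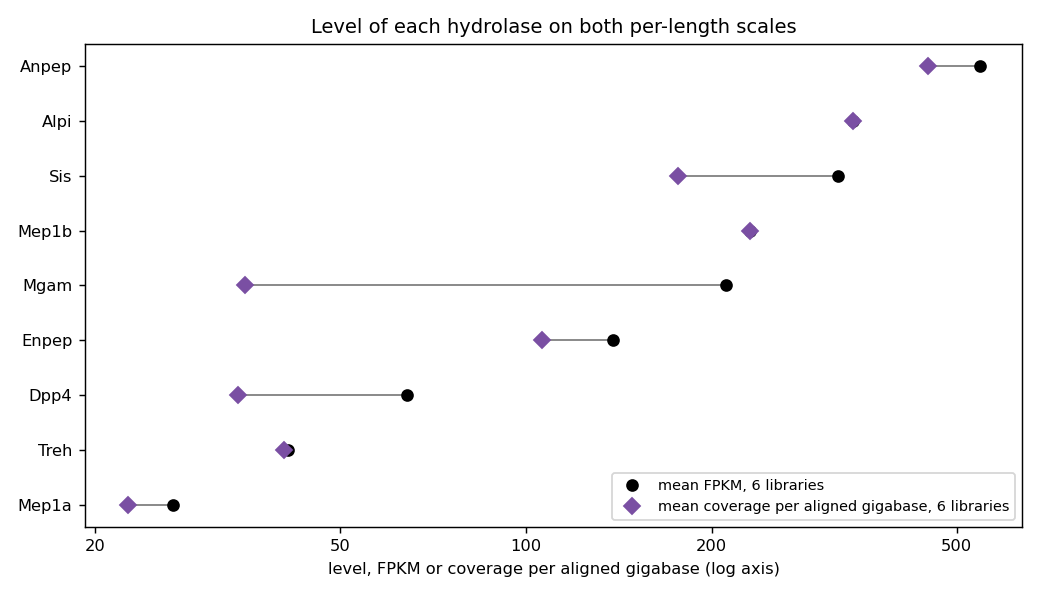
Mean level of each hydrolase over the 6 libraries on a log axis, as FPKM (circles) and as coverage per aligned gigabase (diamonds), ordered by FPKM. The scales coincide for *Alpi* and *Mep1b* and lie farthest apart for *Mgam*, at 211.4 and 35.1.

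None of the 9 hydrolases differed between PCdel and WT adenomas beyond the spread between libraries. After Benjamini-Hochberg adjustment over the 14240 genes tested by limma, 0 of 9 passed the threshold of 0.05, where 0.014% of all genes tested did. At an unadjusted p under 0.05 the count was also 0 of 9, beside 3.38% of all genes, and the groups of 3 libraries were separate in 0 of 9, beside 7.54% of all genes. The fitted difference was above 0 for 5 members and below 0 for 4, with a median log2 fold change of 0.0046 beside 0.042 over all genes tested. This balance rested on single libraries. Without QC6, 7 of 9 were fitted above 0, with a median of 0.34 beside -0.0027 over all genes. *Treh* was then the 1 member at an unadjusted limma p under 0.05, beside 824 of 14264 genes tested. Without QC10, 0 of 9 were fitted above 0, with a median of -0.13 beside 0.053 over all genes. In both cases 0 of 9 passed adjustment. Without QC3, *Mep1a* was the 1 member at an unadjusted p under 0.05, beside 472 of 14223 genes tested. The adjusted p was 1.0 for each member. The width of the intervals sets what could be seen: the 95% interval of *Mgam* ran from -0.52 to 0.13 on the log2 scale, and that of *Mep1a* from -1.33 to 2.32.

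**Figure D2:**
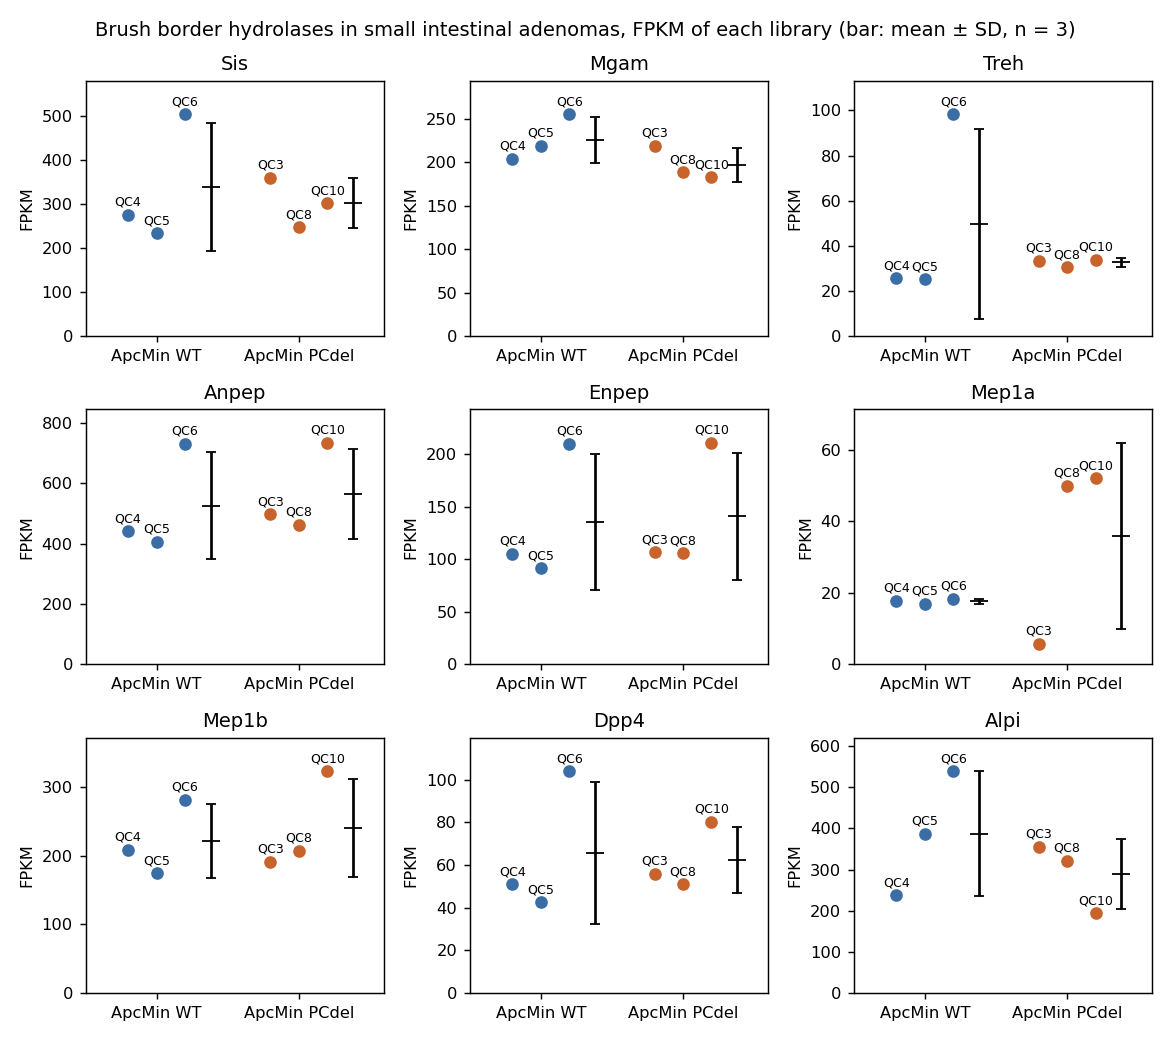
FPKM of each hydrolase in each library (points, named) with the mean ± SD of the 3 ApcMin WT (blue) and 3 ApcMin PCdel (orange) libraries, each panel on its own axis from 0. The groups overlap in all 9 panels, QC6 is the highest library for 5 genes and QC10 for 4.

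Among the disaccharidases, *Sis* splits sucrose and the branch points of starch (chromosome 3, 72888557 to 72967863 in GRCm38). It was expressed at 276.0, 234.2 and 504.8 FPKM in QC4, QC5 and QC6 (WT), and at 360.5, 247.0 and 302.7 FPKM in QC3, QC8 and QC10 (PCdel). The PCdel libraries lay inside the range of the WT libraries, which QC6 set at the top. On the log2(FPKM + 1) scale, PCdel minus WT came to -0.09 (SE 0.30, adjusted p = 1.0 by limma), and an exact two-sided permutation gave p = 0.9. Without QC6 the difference was 0.24.

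*Mgam* releases glucose from the ends of starch chains (chromosome 6, 40628831 to 40769123). It was the steadiest member, with 203.8, 219.1 and 255.2 FPKM in QC4, QC5 and QC6 and 218.8, 188.6 and 182.9 FPKM in QC3, QC8 and QC10. Its highest library was 1.40 times its lowest, a range that 47.5% of the genes tested reached or exceeded. The fitted difference on that log2 scale was -0.20 (SE 0.14, adjusted p = 1.0 by limma; exact permutation p = 0.2), and leaving out any 1 library gave between -0.28 and -0.11, the latter without QC6. *Mgam2-ps*, annotated as a pseudogene beside *Mgam*, was at 11.7 ± 2.47 FPKM in WT and 11.2 ± 2.24 in PCdel adenomas (SD, n = 3 each).

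*Treh* (trehalase, chromosome 9, 44673233 to 44686305) splits trehalose, the sugar of fungi and insects. The values were 25.7, 25.2 and 98.3 FPKM in QC4, QC5 and QC6, and 33.4, 30.5 and 33.9 FPKM in QC3, QC8 and QC10. QC6 stood at 3.91 times the lowest library, and without it the range was 1.35 times, while the 3 PCdel libraries differed little among themselves. PCdel minus WT was -0.29 on the log2 scale (SE 0.50, adjusted p = 1.0 by limma; exact permutation p = 1.0). Without QC6 it turned to 0.34 (adjusted p = 0.786 by limma, unadjusted p = 0.00889), with both remaining WT libraries below all 3 PCdel libraries.

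Of the peptidases, *Anpep* removes neutral residues from the amino end of peptides (chromosome 7, 79821803 to 79861059). It was at 441.2, 405.4 and 730.7 FPKM in QC4, QC5 and QC6 and at 496.7, 462.0 and 733.6 FPKM in QC3, QC8 and QC10. The high values of 1 library in each group, QC6 and QC10, were nearly equal. The log2 difference between the genotypes was 0.12 (SE 0.28, adjusted p = 1.0 by limma; exact permutation p = 0.5), and 0.38 without QC6.

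*Enpep* removes acidic residues from the amino end, and also acts on angiotensin II (chromosome 3, 129269175 to 129332720). Its values were 105.3, 91.4 and 209.7 FPKM in QC4, QC5 and QC6, and 106.4, 105.8 and 210.6 FPKM in QC3, QC8 and QC10. As for *Anpep*, QC6 and QC10 were the high libraries, and per 100 FPKM of *Anpep* there were between 21.4 and 28.7 of *Enpep* in every library. By limma the log2 difference was 0.08 (SE 0.39, adjusted p = 1.0; exact permutation p = 0.5), and 0.44 without QC6.

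*Dpp4*, which cuts dipeptides after proline and inactivates incretin hormones (chromosome 2, 62330073 to 62412231), was at 51.0, 42.5 and 103.9 FPKM in QC4, QC5 and QC6. The PCdel libraries QC3, QC8 and QC10 had 55.8, 51.0 and 80.2 FPKM. It kept a nearly fixed ratio to *Anpep*, between 10.5 and 14.2 per 100 in the 6 libraries. PCdel minus WT was 0.0046 on the log2 scale (SE 0.35, adjusted p = 1.0 by limma; exact permutation p = 1.0), and 0.39 without QC6.

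*Mep1b* encodes meprin beta, the membrane-bound partner of meprin alpha. It was at 208.5, 174.8 and 281.4 FPKM in QC4, QC5 and QC6 and at 191.3, 207.0 and 323.2 FPKM in QC3, QC8 and QC10. The groups overlapped, with a log2 difference of 0.11 (SE 0.26, adjusted p = 1.0 by limma; exact permutation p = 0.7), and 0.29 without QC6.

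*Mep1a*, whose product is secreted or held at the membrane by meprin beta (chromosome 17, 43474324 to 43502812), had the widest range of the 9 members. The WT libraries were close together, at 17.8, 16.9 and 18.4 FPKM in QC4, QC5 and QC6. The PCdel libraries spread to both sides of them, with 5.76 FPKM in QC3 and 49.9 and 52.0 FPKM in QC8 and QC10. The highest library was 9.03 times the lowest, and 1.05% of the genes tested had a range as large. The mean in PCdel adenomas was 35.9 ± 26.1 FPKM against 17.7 ± 0.75 in WT adenomas (SD, n = 3 each). The fitted difference of the log2 values was 0.49 (SE 0.76, adjusted p = 1.0 by limma; exact permutation p = 0.7). It was 1.48 without PCdel library QC3 (adjusted p = 0.0616 by limma, unadjusted p = 1.73e-05), 0.52 without QC6, 0.019 without QC8 and -0.010 without QC10. Per 100 FPKM of its partner *Mep1b*, *Mep1a* had 8.52, 9.68 and 6.54 in QC4, QC5 and QC6, and 3.01, 24.1 and 16.1 in QC3, QC8 and QC10.

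Several genes of the distal small intestine were highest in the same libraries as *Mep1a*. *Fabp6*, the ileal bile acid binding protein, had the largest fitted rise of the 7 distal genes. It was at 8.22, 23.6 and 2.39 FPKM in QC4, QC5 and QC6, at 6.18 in QC3, and at 1477 and 630.2 in QC8 and QC10. The bile acid transporters *Slc10a2* and *Slc51b*, chosen after their values were seen, were also highest in QC8 and QC10. *Slc10a2* had 5.14, 6.41 and 0.90 FPKM in QC4, QC5 and QC6 and 1.99, 36.3 and 13.0 in QC3, QC8 and QC10. *Slc51b* was between 44.3 and 60.9 FPKM in the WT libraries, 41.4 in QC3, and 137.0 and 135.0 in QC8 and QC10. The summed level of the 7 distal genes was between 365.2 and 633.1 FPKM in WT libraries and 258.2, 2156 and 1591 in QC3, QC8 and QC10. Of these sums, *Fabp6* gave 1477 FPKM in QC8 and 630.2 in QC10, and *Guca2a* gave 361.2 and 678.1. *Guca2a* was at 490.0 FPKM in WT library QC5, above QC8, and its log2 difference was -0.09. Not all of the list followed: *Cubn*, its largest fitted fall, was highest in QC6 at 10.6 FPKM, and its difference went from -0.63 to -0.17 without that library. Between genotypes, 0 of the 7 passed the limma threshold and 0 had an unadjusted p under 0.05, *Fabp6* at a log2 fold change of 4.36 included (adjusted p = 1.0). The part of the adenomas' position along the intestine in the *Mep1a* values was not tested.

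**Figure D3:**
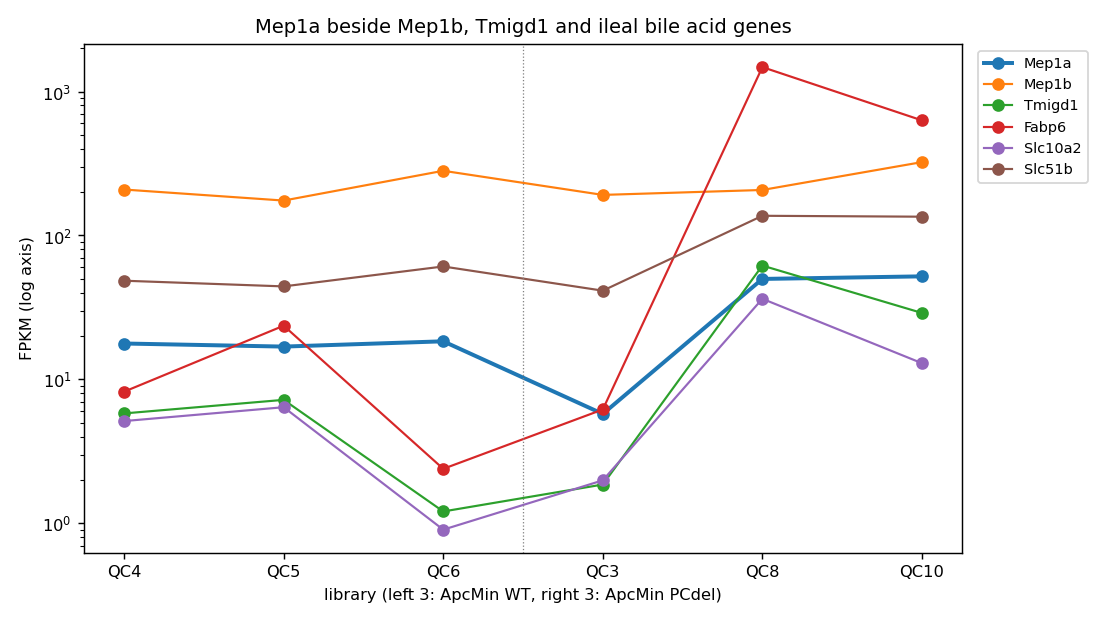
FPKM on a log axis of *Mep1a* (thick line), *Mep1b*, *Tmigd1*, *Fabp6*, *Slc10a2* and *Slc51b* in the 6 libraries, the 3 ApcMin WT on the left and the 3 ApcMin PCdel on the right. *Mep1a* goes from 5.76 in QC3 to 52.0 in QC10 while *Mep1b* stays between 174.8 and 323.2. The lines only join the libraries for the eye.

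*Alpi* dephosphorylates luminal lipopolysaccharide and nucleotides (chromosome 1, 87098002 to 87101606). It was at 237.0, 386.7 and 539.1 FPKM in QC4, QC5 and QC6 and at 355.0, 321.6 and 193.6 FPKM in QC3, QC8 and QC10. QC10, the highest library for 4 peptidases, was the lowest for *Alpi*. Per 100 FPKM of *Anpep*, *Alpi* ranged from 26.4 in QC10 to 95.4 in QC5. The fitted log2 difference was -0.39 (SE 0.35, adjusted p = 1.0 by limma; exact permutation p = 0.4), and leaving out any 1 library gave between -0.70 and -0.11, the latter without QC6.

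*Akp3*, the alkaline phosphatase that shares sequence with *Alpi*, varied far more, with 2.89, 160.6 and 14.7 FPKM in QC4, QC5 and QC6 and 5.96, 14.4 and 0.61 in QC3, QC8 and QC10. Per 100 FPKM of *Alpi* it was 41.5 in QC5 and between 0.32 and 4.48 in the other libraries. *Akp3* had the largest fitted fall of the other brush border enzymes, -1.95 on the log2 scale (SE 1.42, adjusted p = 1.0 by limma), with overlapping groups.

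**Figure D4:**
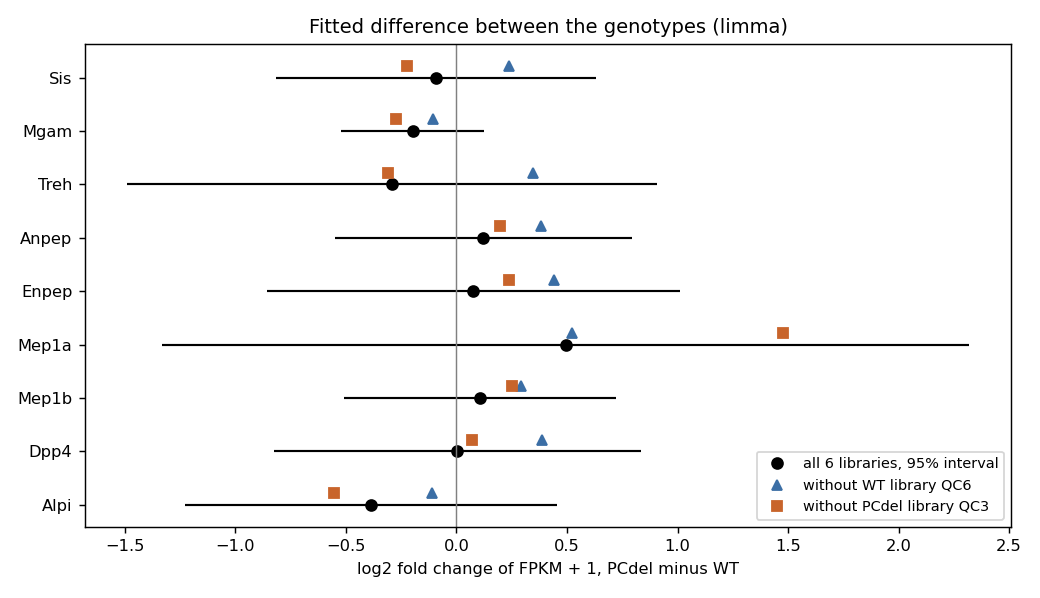
Fitted log2 fold change of FPKM + 1, PCdel minus WT, of each hydrolase with its 95% interval (circles), without WT library QC6 (triangles) and without PCdel library QC3 (squares). All 9 intervals include 0. *Treh* goes from -0.29 to 0.34 without QC6, and *Mep1a* from 0.49 to 1.48 without QC3.

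The range over the 6 libraries was above the median range of the genes tested (0.46 on the log2 scale) for 9 of 9 members. The genes tested were not matched to the members in level. Over the members, the median ratio of the highest to the lowest library was 2.30, and 1.85 without QC6. *Sis*, *Mgam*, *Treh*, *Dpp4* and *Alpi* were highest in QC6, and *Anpep*, *Enpep*, *Mep1a* and *Mep1b* in QC10. The lowest library was QC5 for 6 members, QC10 for *Mgam* and *Alpi*, and QC3 for *Mep1a*. Summed over the 9 members, the level was 1566, 1596 and 2741 FPKM in QC4, QC5 and QC6 and 1824, 1663 and 2113 FPKM in QC3, QC8 and QC10. The PCdel libraries lay within the WT range, and the log2 ratio of the groups was -0.032 (exact two-sided permutation test, p = 1.0). Without QC6 the ratio was 0.23. Divided by the summed level of 9 pan-epithelial genes, the members came to 19.4%, 19.3% and 45.5% in the WT libraries (QC4, QC5, QC6). The PCdel libraries had 27.2%, 22.05% and 25.0% (QC3, QC8, QC10). The highest library, QC6, was 1.75 times the lowest for the summed FPKM and 2.35 times the lowest for this ratio.

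**Figure D5:**
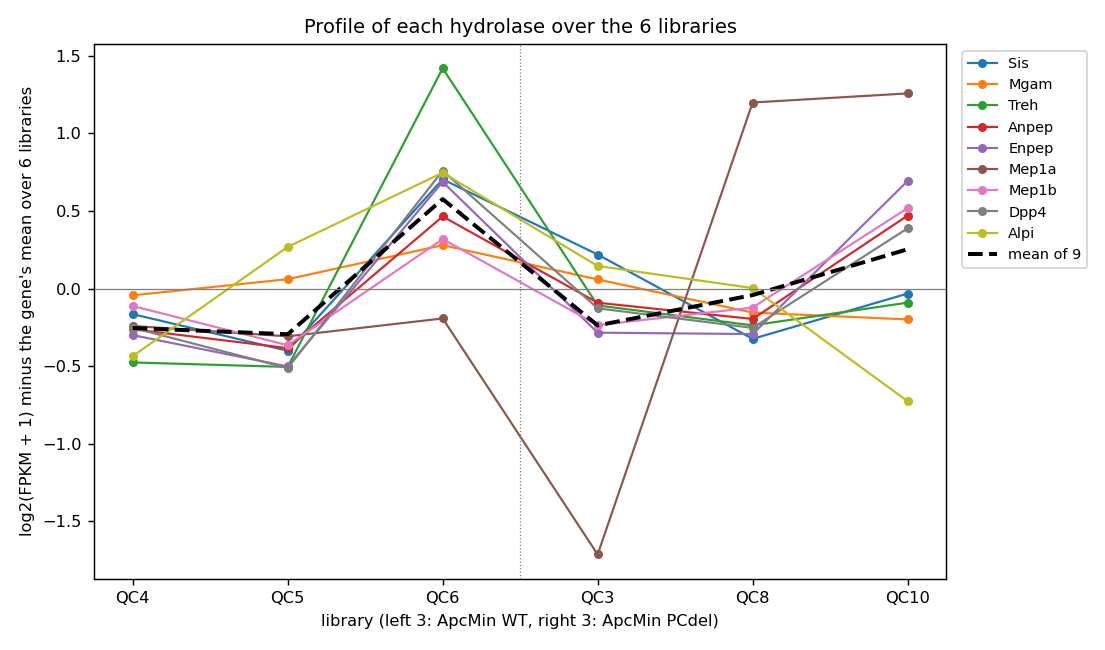
log2(FPKM + 1) of each hydrolase minus its mean over the 6 libraries (lines), with the mean of the 9 profiles (dashed), ApcMin WT libraries left and ApcMin PCdel right. The highest point of each of the 9 profiles is in QC6 or QC10. *Treh* reaches 1.42 in QC6, and *Mep1a* spans from -1.71 in QC3 to 1.26 in QC10.

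The profile of the 9 members, averaged on the centred log2 scale, was -0.25, -0.29 and 0.58 in QC4, QC5 and QC6 and -0.24, -0.04 and 0.25 in QC3, QC8 and QC10. Among 9828 other genes with a mean of at least 5 FPKM, the nearest profiles by root mean square difference over the 6 libraries were those of *Gchfr* (0.042), *Clrn3* (0.053), *Slc26a3* (0.057), *Slc3a2* (0.061) and *Rfk* (0.063). *Gchfr* regulates tetrahydrobiopterin synthesis, *Slc26a3* exchanges chloride for bicarbonate, *Slc3a2* is the heavy chain of amino acid exchangers and *Rfk* is riboflavin kinase. The median distance of all candidates was 0.397. Without QC6 these genes took places 6, 17, 20, 10 and 23 of 9872, and 0 of them were among the 5 nearest. Of the members themselves *Anpep* was closest to the mean profile at 0.137, and *Mep1a* was farthest at 0.941.

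Of 21 other brush border enzymes, 17 could be tested. By limma 0 passed the adjusted threshold and 1 had an unadjusted p under 0.05, with 5 fitted higher and 12 fitted lower in PCdel adenomas. *Cpm* (carboxypeptidase M) had the largest fitted rise, 0.53 on the log2 scale (SE 0.14, adjusted p = 1.0 by limma, unadjusted p = 0.00701). It was at 3.09 ± 0.43 FPKM in WT and 4.93 ± 0.78 FPKM in PCdel adenomas (SD, n = 3 each), and its groups did not overlap. *Plb1* (phospholipase B) was at 34.0 FPKM in QC10 and at most 4.18 FPKM in the other libraries. *Lct* (lactase) was at 146.9 FPKM in QC6 and between 38.2 and 60.1 FPKM in the other libraries, with a log2 fold change of -0.51, and 0.037 without QC6. Of the 17 genes, 9 were highest in QC6 and 5 in QC10. Without QC6 the balance turned: only *Akp3*, *Naaladl1*, *Plb1*, *Asah2* and *Mgam2-ps* were fitted lower in PCdel adenomas. *Ace*, *Mme* and *Cpm* then had unadjusted p = 0.00368, 0.00577 and 0.0121 by limma (adjusted p = 0.760, 0.777 and 0.837). Over all genes, 824 of 14264 had an unadjusted p under 0.05 in that fit.

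The structural genes of the microvillus build its actin core and link its tips. The highest library was under 2 times the lowest for 14 of 15 of them, between 1.17 and 1.95 times, and for 3 of 9 hydrolases (without QC6, 14 of 15 and 7 of 9). The exception among the structural genes was *Tmigd1*, at 51.0 times. Of 15 tested by limma, 0 passed the adjusted threshold and 1 had an unadjusted p under 0.05, and their median log2 fold change was 0.01. *Tmigd1*, a membrane adhesion protein of the microvilli, had the largest fitted rise at 1.82 (SE 1.14, adjusted p = 1.0 by limma). It was at 5.81, 7.21 and 1.21 FPKM in QC4, QC5 and QC6 and at 1.86, 61.8 and 29.0 FPKM in QC3, QC8 and QC10, so it was highest in the libraries where *Mep1a* was highest. *Myo7b*, the myosin of the microvillus tip, had the largest fitted fall, -0.07. *Eps8*, named because it alone on this list had an unadjusted p under 0.05, was at 70.4 ± 3.01 FPKM in WT and 86.4 ± 4.38 FPKM in PCdel adenomas (SD, n = 3 each). Its log2 difference of 0.29 did not pass limma's adjustment (adjusted p = 1.0).

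The transporters that take up the products of the hydrolases were tested in 13 of 14 cases, and by limma 0 passed the adjusted threshold and 0 had an unadjusted p under 0.05. *Slc1a1*, the glutamate transporter, had the largest fitted rise (0.49), and *Slc6a20a*, an imino acid transporter, the largest fitted fall (-0.55). *Slc6a20a* was at 36.1 FPKM in QC6 and between 9.74 and 13.4 FPKM elsewhere, and its difference was -0.066 without QC6. Of the 14 transcription factors of enterocytes, all tested by limma, 0 passed the adjusted threshold and 0 had an unadjusted p under 0.05. *Klf4*, *Maf* and *Prdm1* had the largest fitted rises (0.32, 0.23 and 0.21), and *Gata4* and *Hnf4g* the largest fitted falls (-0.23 and -0.09), each with limma adjusted p = 1.0. Without QC6, *Hnf4g* was at 0.21 and *Gata4* at -0.060. *Hnf4g*, a nuclear receptor of the HNF4 motif searched for above, was at 81.0 FPKM in QC6 and between 39.3 and 57.1 FPKM in the other libraries. *Gata4*, which marks the duodenum and jejunum, was highest in QC6 at 40.5 FPKM and lowest in QC10 at 19.5 FPKM.

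Markers of position differed between the libraries in which members were high. The 8 proximal genes summed to 4248 FPKM in QC6 and to between 1276 and 2181 FPKM in the other libraries, and 5 of the 8 were highest in QC6. *Fabp1* alone gave 3626 FPKM of the sum in QC6. Not all of the list followed: *Onecut2* was highest in QC8. *Slc40a1* and *Cybrd1* were at 9.24 and 5.72 FPKM in QC6 and highest in QC5, at 30.9 and 21.4 FPKM. Of the 8 genes, *Onecut2* had the largest fitted rise between genotypes (0.25) and *Cybrd1* the largest fitted fall (-0.95). By limma 0 of 8 passed the adjusted threshold or had an unadjusted p under 0.05. Without QC6, *Cyp3a11* was at 1.55 and *Cyp2b10* at 1.07 (limma unadjusted p = 0.00799 and 0.00224, adjusted p = 0.786 and 0.719). *Gata4*, *Fabp1*, *Slc40a1* and *Cybrd1* were then fitted lower. The stem and progenitor list summed to 459.4 FPKM in QC6 and to between 547.3 and 648.1 FPKM in the other libraries, and 0 of its 15 genes was highest in QC6. Its largest fitted rise was *Olfm4* (0.44) and its largest fitted fall *Ascl2* (-0.14). T cell markers summed to 164.0 FPKM in QC6 and to between 42.9 and 123.0 FPKM elsewhere, with *Cd8a* as the largest fitted rise (0.42) and 0 of 8 fitted lower. Among the pan-epithelial genes the largest fitted rise and fall were *Krt8* (0.086) and *Lgals4* (-0.055). By limma 0 genes of these 3 lists passed the adjusted threshold or had an unadjusted p under 0.05. Without QC6, *Cd3g*, *Cd8a* and *Cd4* had unadjusted p = 0.0378, 0.0115 and 0.00321 by limma (adjusted p = 0.845, 0.820 and 0.760). Over all genes, 824 of 14264 had an unadjusted p under 0.05 in the fit without QC6. The part of tissue composition and of position in the high hydrolase levels of QC6 and QC10 was not tested.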

How the data were processed

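RNA was sequenced from adenomas in 3 libraries of ApcMin WT and 3 of ApcMin PCdel mice (TruSeq RNA kit, HiSeq2500, alignment in CLC Genomics Workbench by the study's methods). The authors deposited, per gene and library, FPKM, TPM and an unscaled coverage signal (mean read depth). Which program and annotation gave the values is not given in the sources used here. The positions of 8 of the 9 genes equal those in GENCODE M21 (GRCm38). FPKM of repeated entries of 1 gene were summed. Depth was derived by dividing coverage by FPKM. The tables hold no counts, so counting intervals were not derived.

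Genotypes were compared with limma 3.58.1 in R 4.3.3 (lmFit, eBayes with trend) on log2(FPKM + 1). The 14240 genes whose mean FPKM reached 1 were tested, with Benjamini-Hochberg adjustment over all of them and a threshold of 0.05. A fold change on this scale understates the change of weakly expressed genes. An exact two-sided permutation test was used for single values, whose smallest possible p for 3 against 3 libraries is 0.1. The p-values measure the spread between libraries, each taken as 1 mouse. The fit was tested on simulated data. Sequences come from GENCODE M21 transcripts, the reading frame being the longest open frame, and from RefSeq promoters (GRCm38.p6).

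The members and gene lists were chosen with earlier results of these data known. All members were named. From each other list described, where genes could be tested, the largest fitted rise and fall were named (up to 3 each way for brush border enzymes and transcription factors), with the 5 nearest profiles, the paralogs sharing sequence and *Defa21*, *Defa22* and *Lyz1*. A transcription factor that this rule names is not reported here. Genes outside this rule were chosen after their values were seen. These are *Slc10a2*, *Slc51b*, *Eps8*, *Epcam*, *Vil1*, *Krt18*, *Krt19*, *Cdh1*, *Cldn3*, *Cldn7* and *Cdh17*. They also include *Ace*, *Mme*, *Naaladl1*, *Cyp3a11*, *Cyp2b10*, *Fabp1*, *Slc40a1*, *Guca2a*, *Cd3g* and *Cd4*. Alternatives were TPM, quantile normalization, a pseudocount of 0.1, a minimum mean of 5 FPKM or none, centring on the median or on pan-epithelial genes, no trend, array quality weights, a Y-linked covariate and each library left out. Coverage per aligned gigabase, and ranges, listed genes and nearest profiles without QC6, were added after the data were seen.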

Additional observations from a re-analysis of the deposited data

How the results depend on the processing

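With 3 libraries per group, the 95% interval of a member reached as far as 2.32 on the log2 scale (*Mep1a*), so only large differences could be seen. The number of members past the adjusted threshold was 0 under all 17 alternatives. *Mgam* and *Alpi* stayed below 0 under all 17, and no member passed the threshold under any. Leaving out each library gave log2 differences ranging from -0.32 to 0.24 for *Sis*, from -0.62 to 0.34 for *Treh*, from -0.083 to 0.38 for *Anpep*, from -0.25 to 0.44 for *Enpep*, from -0.010 to 1.48 for *Mep1a*, from -0.13 to 0.29 for *Mep1b* and from -0.25 to 0.39 for *Dpp4*. The median over the members ranged from -0.22 (without QC5) to 0.34 (without QC6), and the log2 ratio of the summed level from -0.17 to 0.23. With array quality weights *Sis* was at 0.25 and *Treh* at 0.25, both above 0. With the Y-linked covariate *Sis* was at -0.063, *Treh* at -0.25 and *Mep1a* at 0.43. *Dpp4*, at 0.0046, went to -0.045 with median centring and to -0.021 with pan-epithelial centring. In TPM the log2 ratio of the summed level was 0.027, beside -0.032 in FPKM. The cause of these changes of sign was not tested, and each value lay within the interval of its member. No paired analysis was made, because the labels do not say which mice shared a litter or cage. By the study's methods the controls were littermates, so a pairing may exist that the labels do not show.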
